A study of Mus musculus with 17 samples.

Results

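The neuronal pentraxin genes Nptx1, Nptx2 and Nptxr were followed across mouse cortex that lacks Tsc1 in cells with a history of Gfap promoter activity. They are 3 of the 23284 genes in the deposited count table. They were chosen by the measured change with age in control cortex, where Nptxr is among the leading rises from 4 to 15 weeks, so that change is described here and not tested. All 3 were abundant enough to enter every fit, and no member was lost to the filter on low counts.

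RNA came from the upper part of 2 cortical areas, somatosensory and parietal, of mice of a Bl6/129S mixed background. The 4 groups were mGfapCre+:Tsc1CKO mice at 15 weeks (n = 4) and at 4 weeks (n = 5), and mGFAPCre+ littermate controls at 15 weeks (n = 3) and at 4 weeks (n = 5). By their labels, the controls therefore carry the Cre transgene as well. Tsc1 encodes hamartin, which with the Tsc2 product restrains the kinase mTOR. The promoter of the transgene limits the model, since deletion depends on where and when mouse Gfap drives Cre, and bulk tissue mixes deleted with undeleted cells. Nothing in the labels ties each library to an animal of its own, and the p-values below therefore speak for the spread among libraries, which may be technical.

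Neuronal pentraxins are extracellular proteins that assemble into complexes and cluster AMPA-type glutamate receptors at excitatory synapses. Nptx1 and Nptx2 (also called Narp) are secreted, while the Nptxr product is anchored in the membrane and can be shed by the protease Adam17. Nptx2 is a classical activity-induced gene, enriched at excitatory synapses on parvalbumin interneurons, and secreted glypican 4 (Gpc4) is known to promote release of Nptx1 from axon terminals.

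In mm9 coordinates of the GENCODE annotation, Nptx1 lies at chr11:119400033-119409067 on the minus strand, Nptx2 at chr5:145306756-145318347 on the plus strand and Nptxr at chr15:79616783-79635196 on the minus strand, all annotated as protein coding. The coding sequences are related, with 71.7% identical bases between Nptx1 and Nptx2, 69.5% between Nptx2 and Nptxr and 67.7% between Nptx1 and Nptxr. The stretches below carry the codons of the pentraxin signature, the motif by which the family is recognized, and are shown to let the relatedness of the members be seen. Capitals mark the signature codons, lower case the coding bases on either side, and each stretch lies within a single coding exon.
Nptx1: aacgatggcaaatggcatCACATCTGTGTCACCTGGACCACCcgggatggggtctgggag
Nptx2: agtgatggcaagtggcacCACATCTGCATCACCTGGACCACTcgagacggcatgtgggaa
Nptxr: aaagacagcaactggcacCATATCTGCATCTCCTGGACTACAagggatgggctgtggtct
They lie at chr11:119404592-119404651, chr5:145316190-145316249 and chr15:79620792-79620851, read on the strand of each gene. Of the 24 signature bases, Nptx1 and Nptx2 share 21, Nptx2 and Nptxr 20, and Nptx1 and Nptxr 18. Despite this relatedness, the longest run of identical bases between any pair of transcripts was 16 (Nptx1 and Nptx2), 17 (Nptx1 and Nptxr) or 19 (Nptx2 and Nptxr), against reads of 100 bases, so reads of a member can be told from those of another.

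The count of Nptxr carries a different uncertainty. An annotated read-through gene, Npcd (chr15:79616783-79664667, minus strand), joins the first exons of Cbx6, a chromobox gene of Polycomb complexes, to the later exons of Nptxr. The junctions leading into the first exon that both genes use are shown because they are what separates an Nptxr read from an Npcd read, with the shared exon (chr15:79624876-79624905 for the bases shown) in capitals.
Nptxr: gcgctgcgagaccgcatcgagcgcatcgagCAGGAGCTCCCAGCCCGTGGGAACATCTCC
Npcd: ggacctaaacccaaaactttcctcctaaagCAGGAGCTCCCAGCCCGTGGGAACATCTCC
The lower-case bases are from chr15:79634405-79634434 for Nptxr and chr15:79663942-79663971 for Npcd. All 5387 exonic bases of Npcd are shared with Cbx6 or Nptxr, and Npcd was at a count of 0 in all 17 libraries. Only 956 of the 5168 exonic bases of Nptxr are its own, 792 in the first exon and 164 in another. In the whole count table, 46.5% of the 101 genes with no exonic base of their own were at 0 in every library, against 13.7% of the 18479 genes whose bases are all their own. How the counting treated reads that fit 2 genes is not given in the sources used here. Nptxr levels may therefore come from only part of the transcript, and they can be compared between libraries but not readily with those of Nptx1 and Nptx2.

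**Figure D1:**
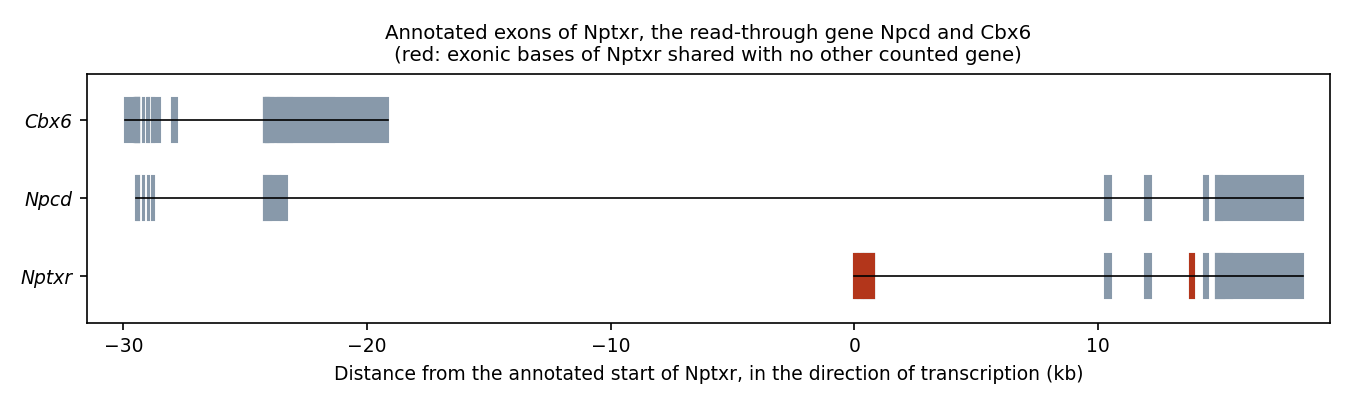
Annotated exons (boxes) of Nptxr, the read-through gene Npcd and Cbx6, by distance in kb from the Nptxr start in the direction of transcription. Red boxes are the 956 exonic bases of Nptxr that no other counted gene shares, 792 of them in the first exon.

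Libraries held 13492007 to 24583430 counts at 4 weeks and 16680450 to 20508464 at 15 weeks. Counts of single members ran from 2727 to 11838 for Nptx1, from 431 to 4581 for Nptx2 and from 109 to 1239 for Nptxr, so counting error is smallest for Nptx1. The targeted gene Tsc1, counted over its whole length, was at 80.3 to 99.3 CPM (counts scaled to a common library size, with sizes adjusted by the trimmed mean of M values) in Tsc1CKO and 84.6 to 99.5 CPM in controls at 4 weeks, and at 82.2 to 131 and 114 to 133 CPM at 15 weeks. It did not pass at either age (adjusted p = 0.983 and 0.449 by edgeR's quasi-likelihood test). As the deleted exons are not named in the labels, this is no check of the genotype. All 12 excitatory, 10 inhibitory and 12 astrocyte markers were detected in every group. Among the 15-week Tsc1CKO libraries, replicate 4 stood apart in Gfap, the astrocyte filament gene, at 996 CPM against 2943 to 5054 CPM in the other 3. Replicate 2 stood apart in other ways, with the ribosomal RNA gene Rn45s at 10.7% of counts, against 5.28 to 7.27% in the others. Its summed pituitary markers were at 77.4 CPM, against 1.28 to 5.63 CPM. Results that rest on replicate 4 are given with and without it, and Nptx2 also without replicate 2. The pituitary hormone gene Gh ranged from 0.0405 to 346 CPM at 4 weeks and from 0 to 52.4 CPM at 15 weeks, and its part in the results was not tested.

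Nptx1 was the most abundant member per length. At 4 weeks it stood at 47.2 ± 8.52 CPM per kb of exon in controls (SD, n = 5), against 15.2 ± 4.81 for Nptx2 and 2.43 ± 0.805 for Nptxr, or 13.1 ± 4.35 for Nptxr if only its own bases are counted. At 15 weeks the control values were 86.4 ± 5.46, 27.4 ± 8.47 and 9.07 ± 4.41 CPM per kb (SD, n = 3), and 49.0 ± 23.8 for Nptxr over its own bases. The order of Nptx2 and Nptxr thus depends on which bases are taken to be counted.

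Each neuronal pentraxin rose between 4 and 15 weeks in Tsc1CKO cortex, in libraries outside the contrast that chose the genes. Earlier results of these data were known when that choice was made. The 15-week libraries lay wholly above the 4-week libraries for each of the 3. In means ± SD over 5 younger and 4 older libraries, the secreted Nptx1 went from 234 ± 41 to 529 ± 122 CPM, the secreted and activity-induced Nptx2 from 43.5 ± 8.13 to 156 ± 97.2 CPM, and the membrane-anchored Nptxr from 18.7 ± 7.57 to 50.7 ± 12.5 CPM. Across all genes tested in this comparison, 13% were called higher, 10.8% were called lower and 9.2% had every 15-week library above every 4-week library.

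Nptx1 in Tsc1CKO replicates 1 to 5 at 4 weeks was at 228, 293, 255, 199 and 196 CPM, and in replicates 1 to 4 at 15 weeks at 579, 505, 660 and 373 CPM. The lowest 15-week library, replicate 4, was still above the highest 4-week library. The rise was 2.28-fold, or 1.19 ± 0.17 on the log2 scale (SE, edgeR adjusted p = 0.00245).

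Nptx2 was at 50.6, 45.6, 46.5, 45.2 and 29.4 CPM at 4 weeks and at 181, 278, 113 and 51.0 CPM at 15 weeks. Replicates 1 to 3 at 15 weeks were high and spread widely, while replicate 4 cleared the highest 4-week library by under 1 CPM. On the log2 scale the rise was 1.85 ± 0.38 (SE, edgeR adjusted p = 0.0071), and it was 2.12 ± 0.25 without replicate 4 and 1.40 ± 0.34 without replicate 2, the library with the highest value.

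Nptxr was at 30.6, 18.1, 13.7, 20.4 and 10.9 CPM at 4 weeks and at 58.0, 42.2, 64.3 and 38.3 CPM at 15 weeks. Replicate 1 at 4 weeks was the high library of the younger group, yet it lay below all 4 older ones. The rise was 1.44 ± 0.26 on the log2 scale (SE, edgeR adjusted p = 0.00449). The 3 rises passed in each of the 20 alternative settings tried. The first exon of Nptxr, which holds most of its own bases, is rich in G and C (78.0%, against 49.6% for the median transcript). With the trend of each library with GC content removed, the Nptxr value was 1.39 to 1.40. That trend could be drawn only up to 72.9% GC, below the exon, so this cannot decide for bases as rich as these. The upstream neighbor Cbx6 moved the other way, from 888 ± 104 to 459 ± 72.3 CPM (log2 fold change -0.94 ± 0.13, adjusted p = 0.0022, edgeR).

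**Figure D2:**
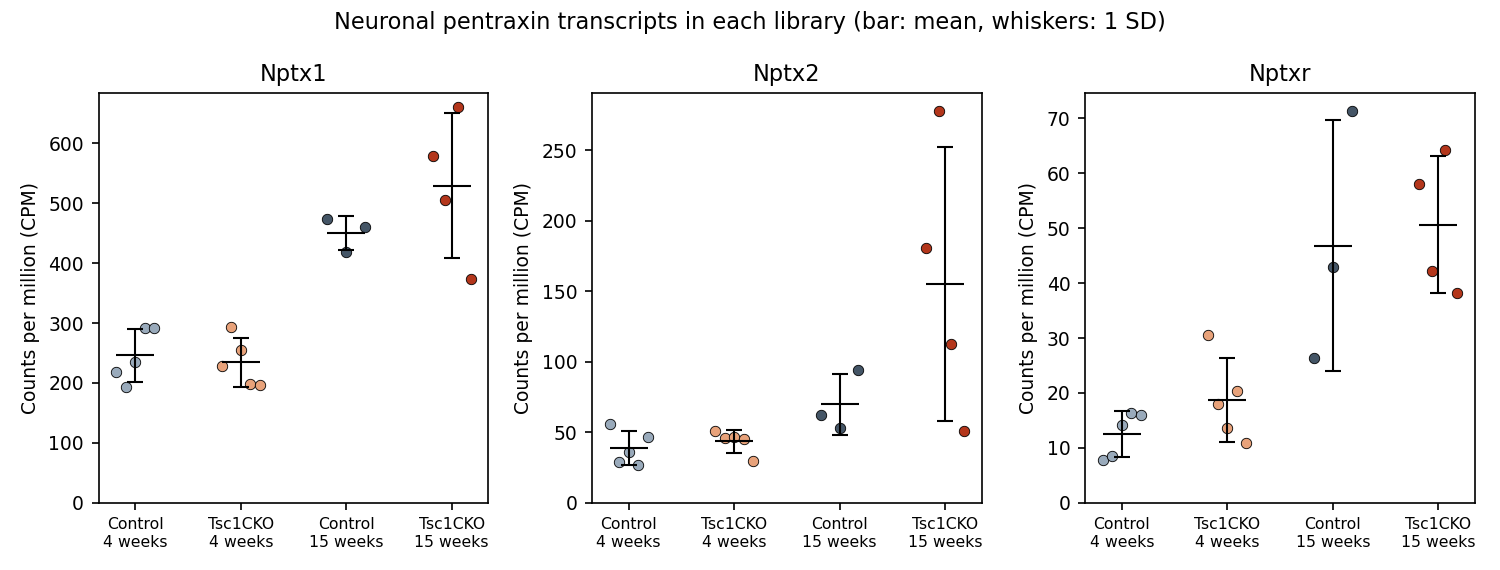
CPM (y axis, from 0) of Nptx1, Nptx2 and Nptxr in each of the 17 libraries by group, with each point a library, the bar the mean and the whiskers 1 SD. The 15-week Tsc1CKO libraries lie above all 4-week Tsc1CKO libraries for each gene, with Nptx2 of replicate 4 at 51.0 CPM close to the highest 4-week value of 50.6 CPM.

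In controls, whose change with age chose the genes, the same direction was seen and is given without a test. Nptxr was at 7.73, 8.47, 14.1, 16.4 and 15.96 CPM in replicates 1 to 5 at 4 weeks and at 26.3, 42.9 and 71.4 CPM in replicates 1 to 3 at 15 weeks. The groups did not overlap, and the older libraries were spread more widely than the younger ones. Its log2 fold change of 1.89 ± 0.37 (SE) ranked 3rd among 2952 rises. The ordering took genes that passed at 0.05, averaged 1 or more in log2 CPM and had no overlap between groups. It followed Hspa1b (2.55 ± 0.77) and Hspa1a (2.48 ± 0.60), a pair of near-identical heat shock genes whose counts are uncertain for that reason, and stood just above the nuclear receptor gene Nr4a3 (1.87 ± 0.61). With each library left out in turn, the Nptxr value ranged from 1.46 to 2.18.

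Nptx1 in controls was at 218, 194, 234, 292 and 292 CPM at 4 weeks and at 474, 419 and 460 CPM at 15 weeks. The groups did not overlap, and its log2 fold change of 0.88 ± 0.13 (SE) ranked 212th in the same ordering. Nptx2 was at 55.8, 28.8, 36.3, 26.6 and 46.5 CPM and then at 62.1, 53.1 and 94.2 CPM. Its groups overlapped, because 15-week replicate 2 lay below 4-week replicate 1, so Nptx2 (0.85 ± 0.28, SE) fell outside that ordering. In this comparison 22.4% of genes were called higher and 21.9% had 15-week libraries wholly above the 4-week libraries.

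At 4 weeks the question was whether loss of Tsc1 had altered the pentraxins in young cortex. None of the 3 passed with edgeR, of which 0 had an unadjusted p under 0.05, nor with DESeq2 or limma voom. Of all genes, 18.8% had an unadjusted p under 0.05 by edgeR, and DESeq2 called 4.49% and limma voom 0.0407%. Control libraries are the ones listed above, and the Tsc1CKO libraries overlapped with them for every member, with 3 of 5 Tsc1CKO libraries above all controls for Nptxr, 1 for Nptx1 and 0 for Nptx2. The log2 difference for Nptx1 was -0.07 ± 0.13 (SE, edgeR adjusted p = 0.813), with bounds of 2 SE at -0.34 and 0.19. Nptx2 was at 0.17 ± 0.21 (edgeR adjusted p = 0.718), with bounds at -0.26 and 0.59. Nptxr was at 0.57 ± 0.30 (edgeR adjusted p = 0.335), with bounds at -0.03 and 1.17, and 2.32% of genes tested had a larger rise. Choosing Nptxr by its rise in controls favors low 4-week control values, so its difference, rank and separation here may be raised by the choice. The Nptxr value fell to 0.31 without Tsc1CKO replicate 1, the library at 30.6 CPM. Calls were rare at this age, at 0.0407% of genes by edgeR, and 1.84% of genes had Tsc1CKO libraries wholly above controls.

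At 15 weeks the same comparison gave the largest difference for Nptx2, which did not pass in the planned test. Tsc1CKO libraries were at 181, 278, 113 and 51.0 CPM, against 62.1, 53.1 and 94.2 CPM in controls. Replicates 1 to 3 of Tsc1CKO were above every control, and replicate 4 was below every control. This is a log2 difference of 1.17 ± 0.49 (SE, edgeR unadjusted p = 0.0397, adjusted p = 0.175), with bounds of 2 SE at 0.20 and 2.14. Without replicate 4 it was 1.46 ± 0.33 (adjusted p = 0.0162, edgeR), in a fit that called 23.2% of all genes. Without replicate 2 it was 0.74 ± 0.45 (adjusted p = 0.398, edgeR). DESeq2 gave 1.15 ± 0.57 (adjusted p = 0.18), whereas limma voom with quality weights, which gives less weight to libraries that stand apart, gave 1.31 ± 0.30 (adjusted p = 0.00981), in a fit that called 34.5% of all genes. The call on Nptx2 thus depends on replicate 4 and on the fit, as do the calls over all genes. It also passed with the replicate number as a block (1.41, given below). No control has the number 4, so Tsc1CKO replicate 4 carries no weight in that difference.

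Nptx1 at 15 weeks averaged 529 CPM with an SD of 122 over the 4 Tsc1CKO libraries, and 451 CPM with an SD of 28.5 over the 3 controls. Replicates 1 to 3 of Tsc1CKO lay above all controls and replicate 4 below all of them, as for Nptx2. The log2 difference was 0.25 ± 0.18 (SE, edgeR adjusted p = 0.398), with bounds of 2 SE at -0.11 and 0.62. It was 0.38 ± 0.13 (edgeR adjusted p = 0.0626) without replicate 4, and limma voom with quality weights gave 0.35 ± 0.11 (adjusted p = 0.0411). Nptxr averaged 50.7 ± 12.5 CPM (SD) in Tsc1CKO against 46.9 ± 22.8 CPM in controls, with all 4 Tsc1CKO libraries inside the control range of 26.3 to 71.4 CPM. Its log2 difference was 0.13 ± 0.32 (SE, edgeR adjusted p = 0.809), with bounds at -0.50 and 0.77, and it was -0.16 without control replicate 1. Of all genes tested, 3.36% were called higher, 0.42% were called lower and 11.2% had Tsc1CKO libraries wholly above controls. None of the 3 members is in the authors' deposited tables of changed genes, which list 1062 genes at 15 weeks and 594 at 4 weeks.

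Whether the effect of genotype differed between the ages was tested on all 17 libraries. For Nptx2 the difference was 0.99 ± 0.53 on the log2 scale (SE, edgeR adjusted p = 0.25), for Nptx1 0.30 ± 0.24 (adjusted p = 0.422) and for Nptxr -0.46 ± 0.46 (adjusted p = 0.542). None of the 3 passed with edgeR or DESeq2, with 0 at an unadjusted p under 0.05 in either, in a comparison where edgeR called 0.213% of genes and DESeq2 6.4%, and where 25.1% of genes had an unadjusted p under 0.05 by edgeR. With limma voom and quality weights 1 passed, Nptx2, at 1.07 ± 0.37 (adjusted p = 0.041), in a fit that called 25.5% of all genes. Without 15-week Tsc1CKO replicate 4 the Nptx2 difference was 1.28 ± 0.40 (edgeR adjusted p = 0.0321), in a fit that called 3503 genes, against 33 with all libraries. Without control replicate 3 the Nptxr difference was -0.03. The tests of genotype and of this difference share control libraries with the age contrast that chose the genes, and they share Tsc1CKO libraries with the age test above. A choice by a large rise favors low 4-week and high 15-week control values. For Nptxr it may thus raise the genotype value at 4 weeks and lower that at 15 weeks and the interaction.

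**Figure D3:**
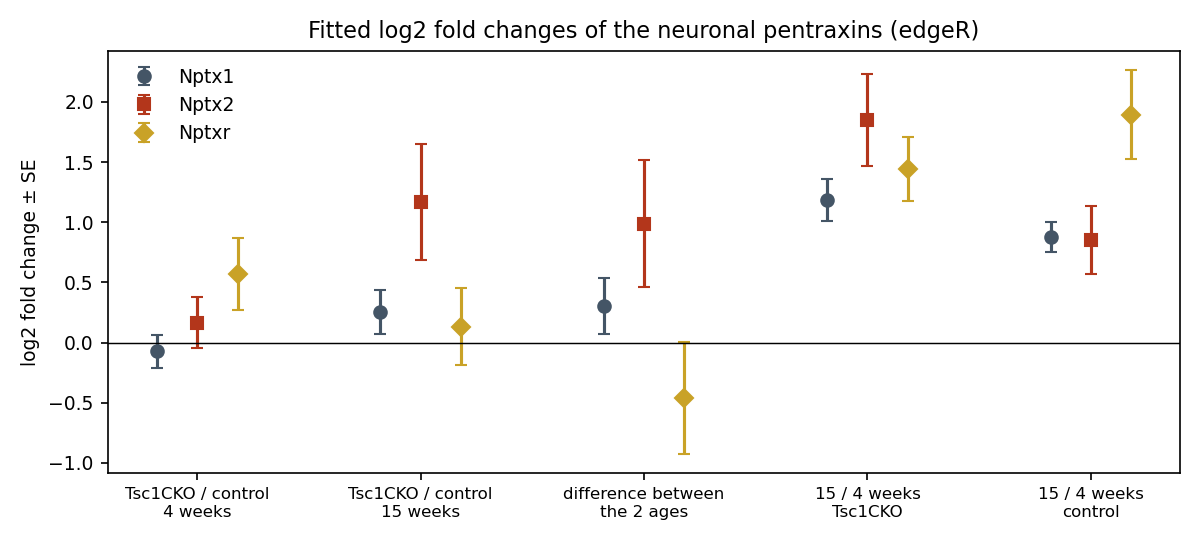
Fitted log2 fold changes (y axis) with SE for Nptx1, Nptx2 and Nptxr in the 5 comparisons, where the third is the difference between the genotype effects at 15 and 4 weeks. The age rises in Tsc1CKO lie at 1.19, 1.85 and 1.44, the Nptx2 genotype value at 15 weeks is 1.17 with a wide error, and the control age values chose the genes and carry no test.

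The balance among the members was examined as a ratio of counts within each library, which does not depend on how libraries are scaled. Nptx2 counts were 9.11 to 25.6% of Nptx1 counts in 4-week controls, 15.1 to 22.8% in 4-week Tsc1CKO, 12.7 to 20.5% in 15-week controls and 13.7 to 55.0% in 15-week Tsc1CKO. The widest range was thus that of 15-week Tsc1CKO. Nptxr counts were 3.57 to 6.04%, 5.38 to 13.4%, 5.56 to 15.5% and 8.35 to 10.3% of Nptx1 counts in the same order of groups. None of 9 two-sided exact permutation tests on the log2 ratios (3 ratios, by genotype at each age and by age in Tsc1CKO) passed after Benjamini-Hochberg adjustment. The smallest was that of Nptxr to Nptx1 for genotype at 4 weeks, with a difference of 0.63 ± 0.30 (SE, exact permutation p = 0.0873, adjusted p = 0.536). The smallest exact permutation p the design allows is 0.00794 for genotype at 4 weeks and age in Tsc1CKO. For genotype at 15 weeks it is 0.0286. After adjustment over 9 tests, a lone ratio at its smallest p would still not pass. These tests therefore cannot decide whether a single ratio shifted. In Tsc1CKO, the difference with age was 0.44 ± 0.47 for Nptx2 to Nptx1, 0.33 ± 0.27 for Nptxr to Nptx1 and -0.12 ± 0.54 for Nptxr to Nptx2. These errors leave room for sizable shifts in the balance in either direction.

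Across libraries, Nptx2 ran with Bdnf, the gene of the neurotrophin BDNF, another activity-induced secreted protein. Bdnf was at 132, 154, 87.4 and 48.7 CPM in 15-week Tsc1CKO replicates 1 to 4, the same order as Nptx2, and at 40.0, 40.2 and 69.3 CPM in the 15-week controls. Of 10599 genes ranked, Bdnf had the highest correlation with Nptx2 over the 17 libraries (Pearson r = 0.976 on log2 CPM) and also after each group's mean was subtracted (r = 0.960). For that within-group relation Spearman's rho was 0.975 (permutation p = 2e-05, adjusted p = 0.0003 over 15 relations for each coefficient), and r was 0.957 without the libraries farthest from the median, 15-week Tsc1CKO replicates 2 and 4. Neither Fos (r = 0.18, adjusted permutation p = 0.978) nor Arc (r = 0.01, adjusted permutation p = 0.978), a pair of rapidly induced activity genes, showed such a relation with Nptx2. For Gfap, r was 0.67 (adjusted permutation p = 0.283) and dropped to 0.20 without those libraries. The libraries share the scaling step and, within a group, differ in depth and tissue content.

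**Figure D4:**
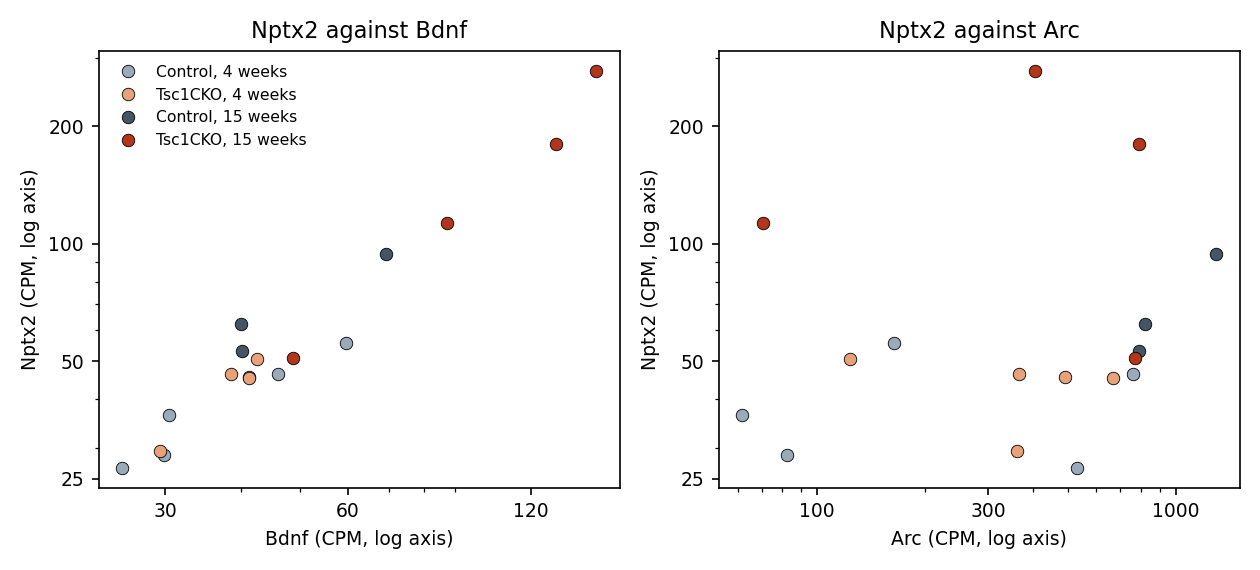
Nptx2 CPM against Bdnf CPM (left) and Arc CPM (right) in the 17 libraries, both axes logarithmic, colored by group. Nptx2 follows Bdnf across groups and within the 15-week Tsc1CKO group (48.7 to 154 CPM of Bdnf), and shows no such alignment with Arc.

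With age in Tsc1CKO, Bdnf rose by 1.46 ± 0.27 on the log2 scale (SE, edgeR adjusted p = 0.00454). Its genotype value at 15 weeks, 1.10 ± 0.37 (edgeR adjusted p = 0.115), was close to that of Nptx2 and likewise did not pass. After Bdnf, the genes most like Nptx2 over 17 libraries were the uridine-cytidine kinase gene Uck2 (r = 0.954), the nocturnin gene Ccrn4l (0.952), Dok5 (0.933) and Megf11 (0.933). After removal of group means they were Tmem158 (0.950), Ubtd1 (0.914), Uck2 (0.885) and the lactate dehydrogenase gene Ldha (0.880).

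Nptx1 was most like Rassf4 (r = 0.978), the amino acid transporter gene Slc6a17 (0.970), the phosphofructokinase gene Pfkp (0.969) and Rassf5 (0.967) over the 17 libraries. Within groups its nearest genes were Ciapin1 (0.912), Mmp17 (0.885), Lpgat1 (0.880), Pfkp (0.870) and Sh2d5 (0.867). Nptxr was most like Dtx1 (0.937), Mtap7d1 (0.936), Zdhhc7 (0.936), Stat6 (0.934) and the Nogo receptor family gene Rtn4rl2 (0.933), and within groups like the netrin receptor gene Unc5a (0.862), the potassium channel genes Kcnk12 (0.850) and Kcnt1 (0.842), Scand1 (0.794) and Jund (0.791). Among themselves the members were only loosely related within groups, at r = 0.47 for Nptx1 and Nptxr, 0.37 for Nptx1 and Nptx2 and 0.23 for Nptx2 and Nptxr, and none of these passed (adjusted permutation p = 0.283, 0.829 and 0.829).

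Receptor and scaffold genes, whose products the pentraxins act on, went in both directions with age in Tsc1CKO, and most of the falls were among scaffolds. Of 4 AMPA receptor subunit genes, 0 were called higher and 2 lower, Gria2 (-0.48 ± 0.15, log2 ± SE) and Gria4 (-0.36 ± 0.11), while Gria1 was at 0.39 ± 0.14 (adjusted p = 0.0656, edgeR). The list median was -0.33, against 0.003 over all genes tested, of which 13% were called higher and 10.8% lower. Of 20 auxiliary AMPA receptor proteins, 10 had a positive value (median 0.01), and 2 were higher and 1 lower, the stargazin gene Cacng2 (-0.53 ± 0.12), while Porcn (0.56 ± 0.13) and Frrs1l, listed as 6430704M03Rik (0.55 ± 0.17), both components of AMPA receptor complexes in the endoplasmic reticulum, were the higher ones. Of 18 postsynaptic scaffold genes, 8 were lower and 1 higher (median -0.26). Homer2 fell by 1.48 ± 0.24, Dlg2 by 0.73 ± 0.12 and Dlg4, the gene of PSD-95, by 0.68 ± 0.12, and Nsf, which drives receptor trafficking, rose by 0.85 ± 0.15. With age in controls, the contrast that chose the members, 2 AMPA subunits, 9 auxiliary proteins and 6 scaffolds were higher and 0, 1 and 6 were lower (medians 0.10, 0.23 and -0.09), where 22.4% of all genes were called higher and 19.3% lower. The difference between the age changes of the genotypes is the interaction given above, in which edgeR called 0 genes of these 3 lists and 0.213% of all genes. At an unadjusted p under 0.05 by edgeR were 2, 7 and 8 of them, against 25.1% of all genes. DESeq2 called 0, 3 and 1 of them, against 6.4% of all genes, and limma voom 3, 8 and 8, against 25.5%. Once 15-week Tsc1CKO replicate 4 was left out, 3, 7 and 7 passed by edgeR, in a fit that called 3503 genes, against 33 with all libraries.

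Of 7 genes that release or shed pentraxins, 1 was higher and 1 lower with age in Tsc1CKO. This is close to the shares over all genes, 13% higher and 10.8% lower. Adam17, the protease that sheds Nptxr, fell by 0.49 ± 0.11 (adjusted p = 0.00889, edgeR), and Gpc4 rose by 0.43 ± 0.14 (adjusted p = 0.0381). Of 24 further extracellular synaptic organizers, 7 were higher and 2 lower (median 0.16). With age in controls 14 organizers were higher and 1 lower (median 0.35), where 22.4% of all genes were called higher. Among the organizers in Tsc1CKO, C1ql2 rose by 2.99 ± 0.49, C1ql3 by 1.08 ± 0.17 and Sparc, a matrix protein, by 1.11 ± 0.21, and the cerebellin gene Cbln2 fell by 0.60 ± 0.14. C1ql2 is also on the list of hippocampal markers, whose summed level was 31.5 to 34.2 CPM in 4-week and 31.3 to 76.0 CPM in 15-week Tsc1CKO libraries, and the part of tissue sampling was not tested.

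Complement was included because pentraxins can bind C1q, the recognition component of the classical pathway. Of 8 classical complement genes, 6 were higher with age in Tsc1CKO and 0 lower (median 1.20), where 13% of all genes were called higher. C4b rose by 3.98 ± 0.39, although its count is uncertain because of a near-identical neighbor, C3 by 3.74 ± 0.47, C1qc by 1.19 ± 0.22 and C1qb by 1.24 ± 0.24. The other pentraxin genes, Crp, Apcs, Ptx3 and Ptx4, were too low to be tested. Ptx3, the long pentraxin of innate immunity, had 154 counts in 15-week Tsc1CKO replicate 2 and at most 11 in any other library.

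Activity-induced effector genes, the class to which Nptx2 belongs, were higher with age in Tsc1CKO for 11 and lower for 1 of 22 members (median 0.86). Over all genes, 13% were called higher and 10.8% lower. The lower one was Homer1, which is also counted among the scaffolds. With age in controls 5 effectors were higher and 1 lower (median 0.44), where 22.4% of all genes were called higher. In Tsc1CKO the granin-family genes Vgf and Scg2 rose by 1.93 ± 0.29 and 2.31 ± 0.43 and the phosphatase gene Dusp4 by 1.54 ± 0.19. Among 15 activity-induced transcription factors in Tsc1CKO, 2 were higher, close to the share over all genes, and 0 lower (median 0.57). Jun was at 1.35 ± 0.25, Fosb at 1.79 ± 0.55, and Fos at 1.34 ± 0.72 (adjusted p = 0.199, edgeR). With age in controls 2 transcription factors were higher, below the 22.4% over all genes, and 0 lower (median 1.00). Fos ranged from 10.7 to 303 CPM among the 15-week Tsc1CKO libraries and Arc, an effector, from 70.8 to 790 CPM, and their log2 differences rest on that spread.

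Parvalbumin interneurons are a main site of Nptx2 action. Of 12 of their genes, 4 were higher and 0 lower with age in Tsc1CKO (median 0.35), against 13% and 10.8% of all genes. The higher ones were the GABA synthesis and transport genes Gad2 (1.27 ± 0.20), Slc32a1 (1.19 ± 0.17) and Gad1 (0.67 ± 0.15), and Tac1 (1.75 ± 0.35). Of these, the GABA genes are shared by all inhibitory neurons. Pvalb, the parvalbumin gene itself, was at -0.33 ± 0.18 (adjusted p = 0.205, edgeR), and the fast-spiking potassium channel genes Kcnab3 and Kcnc1 at -0.25 ± 0.22 and -0.04 ± 0.16. The other 9 of the 12 had a positive value. Among these were Kcnc2, also a potassium channel gene, at 0.19 ± 0.15, Syt2 at 0.46 ± 0.25 and Erbb4 at 0.41 ± 0.24, none of them called. With age in controls, 10 of the 12 were higher and 1 lower (median 0.63), where 22.4% of all genes were called higher and 19.3% lower. Of 10 tested perineuronal net genes, 2 were higher and 3 lower with age in Tsc1CKO (median 0.01), against the same 13% and 10.8% of all genes. The link protein gene Hapln4 was at 1.47 ± 0.21 and Hapln1 at -0.99 ± 0.21. These 2 lists hold genes of other interneurons and of glia too. The counts of genes called with age in Tsc1CKO depended on single libraries more in some lists than in others. Without 15-week replicate 1, 0 of the AMPA receptor subunits, 1 auxiliary protein, 6 scaffolds, 5 organizers, 7 effectors and 2 perineuronal net genes passed, against 4 parvalbumin genes and 5 complement genes, in a fit that called 11.5% of all genes. The AMPA receptor subunit count was also 0 without 4-week replicate 2, 3, 4 or 5. Without 15-week replicate 4 the auxiliary count was 7 and the release count 4, but that fit called 5128 genes, against 3558 with all libraries.

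At 15 weeks the genotype comparison left these lists largely uncalled by edgeR with all libraries, but not in other fits. Of the 4 AMPA subunits, 20 auxiliary proteins, 7 release genes, 15 transcription factors, 22 effectors and 10 perineuronal net genes tested, 0 passed in any list by edgeR, with 3, 8, 1, 1, 11 and 3 at an unadjusted p under 0.05, a level reached by 25.3% of all genes. The counts for the release genes and transcription factors were below that share and that for perineuronal net genes was close to it. DESeq2 called 1, 5, 0, 0, 6 and 1 of them, against 12.8% of all genes, and limma voom with quality weights 3, 11, 1, 3, 12 and 6, against 34.5%. With Tsc1CKO replicate 4 left out, 3, 8, 1, 3, 10 and 2 passed by edgeR, against 23.2% of all genes. The list medians were -0.51, -0.22, -0.04, -0.56, 0.34 and 0.28, against 0.02 over all genes. The scaffold Homer3 (1.09 ± 0.21), the organizers Sparc (2.78 ± 0.22) and Thbs4 (3.61 ± 0.62) and the complement genes C4b, C1qc and C1qb were higher, and the synaptotagmin gene Syt2 of parvalbumin terminals was lower (-1.11 ± 0.23). Of the 18 scaffolds, 24 organizers and 12 parvalbumin genes, 4, 11 and 7 had an unadjusted p under 0.05 by edgeR, against 25.3% of all genes. DESeq2 and limma voom called 2 to 12, 7 to 18 and 7 to 9 of them, against 12.8% and 34.5% of all genes. With 1 library left out, edgeR called 0 to 9, 1 to 10 and 0 to 9, in fits that called 39 to 3460 genes. Of the 8 complement genes 3 passed, but 0 did without control replicate 1 or 3, and 6 did without Tsc1CKO replicate 4. At 4 weeks 0 genes of any of these lists passed by edgeR or limma voom, with 0 to 10 a list at an unadjusted p under 0.05 by edgeR, where 18.8% of all genes were. The organizers had 10 of 24, and the other lists 0 to 3. DESeq2 called 0 to 2 a list, against 4.49% of all genes. Without Tsc1CKO replicate 2, edgeR called 4 organizers, 2 perineuronal net genes and 1 complement gene, against 3.99% of all genes.

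**Figure D5:**
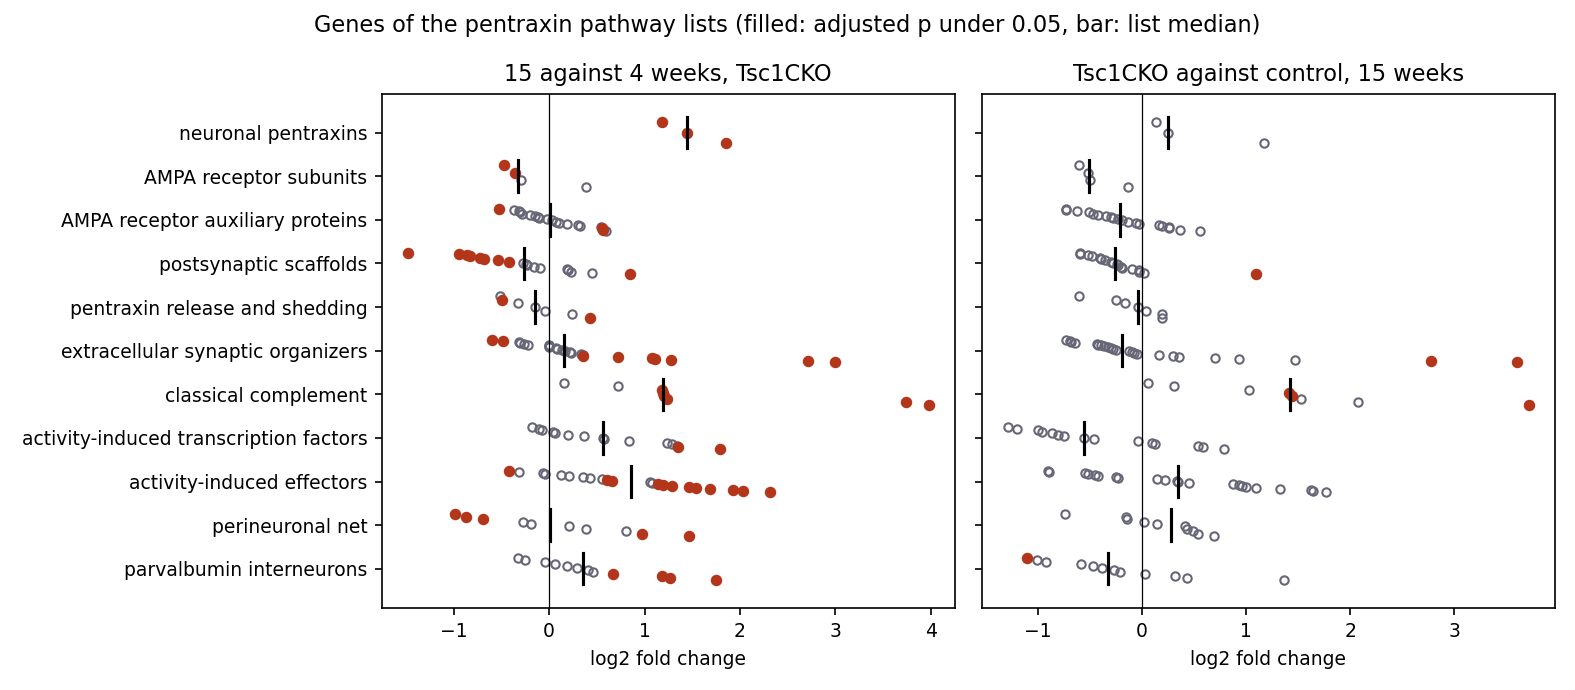
log2 fold changes (x axis) of the neuronal pentraxins and of the genes of 10 related lists, with age in Tsc1CKO (left) and by genotype at 15 weeks (right). Filled points passed an adjusted p of 0.05, bars are list medians, and on the left the pentraxins (median 1.44) and effectors (0.86) lie to the right of the AMPA receptor subunits (-0.33).

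Markers of cell types moved with age and genotype beside these results. For the counts below, 13% of all genes were called higher with age in Tsc1CKO and 10.8% lower. From 4 to 15 weeks in Tsc1CKO, the summed level of 12 excitatory neuron markers went from 9571 to 12178 CPM down to 6221 to 8165 CPM. This sum followed its most abundant gene, the synaptic kinase gene Camk2a, whose mean went from 7509 to 3448 CPM, while 9 of the 12 markers had a positive value (median 0.10). Of the 12, the vesicular glutamate transporter gene Slc17a7 was called higher (0.70 ± 0.15) and Camk2a (-1.11 ± 0.19) and Nrgn (-0.43 ± 0.12) lower. These counts are close to the shares over all genes. The summed level of 10 inhibitory markers went from 704 to 849 CPM up to 972 to 3018 CPM, with the neuropeptide gene Npy going from a mean of 75.4 to 869 CPM. Of these 10, 6 had a positive value (median 0.48), with 5 called higher and 1, Vip (-0.67 ± 0.12), lower. The summed level of 12 microglial markers went from 471 to 641 CPM to 608 to 1175 CPM, with 11 positive and 6 called higher. The 12 astrocyte markers summed to 10560 to 15210 and 12159 to 14664 CPM at the same ages, and to 7138 to 8069 CPM in 15-week controls. With age in Tsc1CKO, 2 of them were called higher, close to the share over all genes, and 3 lower. In bulk RNA, fewer cells of a type and less RNA per cell cannot be told apart, and the part of cell composition in the pentraxin results was not tested. Library codes of the 4- and 15-week samples form separate runs, so age and any difference in processing between these runs cannot be told apart.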

How the data were processed

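Messenger RNA libraries (poly-A selected, an Illumina TruSeq kit, reads of 100 bases) were mapped by the authors to mm9 with Tophat 2.0.4 after bcl2fastq 1.8.4, per the labels' series text. Which program counted reads, on which annotation and with what regard to strand, is not given in the sources used here. The authors deposited unnormalized counts, 1 whole number for each gene symbol and library. Their header is offset by a place, so columns were taken by number, and all 17 matched the authors' normalized values of the same library. In the deposited comparison tables the signal of a library was found, from the values, to be its counts over a constant, a size factor of DESeq2. The log2 fold changes, the score (a test statistic) and the p-values there are the authors' DESeq2 output, per the file headers. Per the labels, the authors' cutoff was an adjusted p of 0.05. These tables were used only to see whether a member is listed.

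The quasi-likelihood test of edgeR 4.0.16 (R 4.3.3, robust fit, TMM factors, filterByExpr) was run for each comparison on the libraries of its groups, and for the interaction on all 17. Adjustment was by Benjamini-Hochberg over all genes tested. A standard error is the size of the log2 fold change over the square root of F. Ratios between members used counts plus 0.5 and two-sided exact permutation tests over all divisions of the libraries. Relations across libraries used log2 CPM (prior count 2) less the group mean, with 100000 permutations within groups and ranks from scipy 1.17.1. Replicate pairs differed by a chi-square of 6.81 to 91.3 per degree of freedom, so no library was counted as a repeat. The pipeline was tested on simulated data. Depth is 13492007 to 24583430 counts a library, and for members counting error is small beside the spread between libraries.

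The members and gene lists were chosen with earlier results of these data known. Genes were named by a rule: the members, up to 4 genes a list by smallest p, the 5 genes most correlated with each member by either measure at a mean log2 CPM of at least 3, the genes beside Nptxr in its ordering, and Fos, Arc, Bdnf and Gfap. Other genes, such as Cbx6, Npcd, Ptx3, Gh, Hspa1b and single list members, were named after their values were seen, and 2 genes near the members in these orderings are not reported here. Alternatives were DESeq2 1.42.0, limma 3.58.1 voom with quality weights, RLE factors, 2 other filters, an unrobust fit, all 17 libraries in a fit, library sizes without Rn45s, a block for the replicate number, leaving out libraries 1 at a time, and, added after seeing the data, removal of the trend with GC content by loess. Sequences were read from the NCBIM37 transcripts and genome. Identity is that of coding bases in a global alignment, in place of the planned protein comparison, and promoters of the members were not used here.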

Additional observations from a re-analysis of the deposited data

Results flagged for a closer look

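Nptx2 in replicate 5 of the 4-week Tsc1CKO group was at 29.4 CPM, apart from the other 4 libraries of its group, which lay between 45.2 and 50.6 CPM. The gap to the nearest library was 0.746 of the group's range, above the Dixon limit of 0.71 for 5 libraries. In all, 18 groups of values were examined in this way, and chance marks about 1 in 20. The value is within the range of the 4-week controls (26.6 to 55.8 CPM), and Bdnf was also lowest in that library among the 4-week Tsc1CKO samples, at 29.4 CPM.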

How the results depend on the processing

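The rises of Nptx1, Nptx2 and Nptxr with age in Tsc1CKO kept their direction and their call in all 20 alternatives, with log2 fold changes of 1.07 to 1.32, 1.40 to 2.12 and 1.30 to 1.70 and adjusted p up to 0.0122, 0.047 and 0.0192. No genotype result at 4 weeks was called in any of 21. With limma voom and quality weights, genotype at 15 weeks gave 0.35 for Nptx1 and 1.31 for Nptx2, and the interaction 1.07 for Nptx2, all called. The replicate numbers did not pair the samples (same-number correlations from -0.15 to 0.20). With the replicate number as a block, Nptx2 at 15 weeks was 1.41 (adjusted p = 0.0375, edgeR) and no other member's call changed. As no 15-week control has the number 4, Tsc1CKO replicate 4 carries no weight in that value. With a library left out, Nptx2 lay between 0.74 and 1.46 at 15 weeks and between 0.56 and 1.28 for the interaction, called in both without 15-week Tsc1CKO replicate 4. The Nptxr value at 15 weeks then lay between -0.16 and 0.57. The log2 ratio of Nptxr to Nptx1 by genotype at 15 weeks ranged from -0.40 to 0.34 and that of Nptxr to Nptx2 with age in Tsc1CKO from -0.44 to 0.33. No ratio test passed, but these tests carry the limit given with the ratios above. The within-group r of Nptx1 and Gfap went from 0.06 to -0.45 without the 2 farthest libraries.

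The number of genes called moved far more, which bears on the background percentages. At 4 weeks edgeR called 6, against 596 with DESeq2, 38 with no filter, 76 with all 17 libraries, 12 without the robust fit, 12 with the block and 0 to 594 with a library left out, the most without Tsc1CKO replicate 2. At 15 weeks it called 567, against 2118 (DESeq2), 5173 (voom), 3501 (all 17), 2842 (block), 372 (GC trend removed, in both forms) and 39 to 3460 with a library left out. The interaction had 33, against 1041, 3948, 19 (no filter), 254 (block) and 4 to 3503, and age in Tsc1CKO 3558, against 6369 (voom), 1786 (block) and 1723 to 5128. The highest left-out counts at 15 weeks, for the interaction and for age were those without 15-week Tsc1CKO replicate 4. The causes were not tested. With 3 controls at 15 weeks, moderate differences may go uncalled.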
